A study of Schizosaccharomyces pombe with 6 samples.

Results

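The auxotrophic marker genes of fission yeast (Schizosaccharomyces pombe) are genes of nucleotide and amino acid synthesis whose loss makes a strain depend on a supplement in the medium. The 6 genes ura4, leu1, ade6, his3, arg3 and lys1 were taken by name from the ASM294v3 annotation, out of 5113 protein-coding genes on chromosomes I to III. The series mapped 2 ligases for the protein modifier SUMO by chromatin immunoprecipitation and sequencing (ChIP-seq): Pli1, a ligase of the PIAS family, and Nse2, a subunit of the genome maintenance complex Smc5/6. The 3 strains were cells with Pk-tagged Pli1 (Pli1-12Pk), cells with Pk-tagged Nse2 (Nse2-12Pk) and cells with no tag, all growing exponentially in rich medium (YES) and all mixed with budding yeast carrying Ku70-cMyc as a calibrator before crosslinking. Each strain gave 1 anti-Pk ChIP library and 1 input, and the values used here are the authors' lists of called regions from the 3 ChIP libraries. Every region carries start and end positions, a score, and a summit, the base at which its signal peaked. There are no replicates, so no difference between strains was tested. How deeply each library was sequenced is not stated in the labels or files. Apart from the tag, the labels give no genotype for the strains, so their alleles at the marker genes are not known here.

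Marker genes serve yeast genetics because a strain lacking the gene product grows only when the missing compound is supplied, so a working copy put back by transformation can be selected. Fission yeast strains commonly carry a deletion of ura4 (the allele ura4-D18, which lacks a HindIII fragment that carries the gene), point mutations in leu1, ade6 or lys1, and in some strains deletions of his3 (his3-D1) or arg3 (arg3-D4). The enzyme of ura4, orotidine 5'-phosphate decarboxylase, makes UMP. It is also needed for the conversion of 5-fluoroorotic acid into a toxin, which allows selection against the gene. Loss of ade6 turns colonies red on low adenine.

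The tagged lists filled nearly all of the genome and the untagged list a smaller part of it. Pli1-12Pk had 299 regions over 99.3% of the genome, Nse2-12Pk had 62 regions over 99.8%, and the untagged strain had 3535 peaks over 18.7%. In the tagged lists, therefore, the stretches between neighbouring regions (gaps) and the summits carry position, and in the untagged list the peaks do. The scale of the score is not stated, so scores are compared here only within the same list. The minimum of 100 used below for untagged scores has no stated meaning on that scale.

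The gene ura4 stood outside every list, and the other 5 marker genes stood inside every list. Pli1-12Pk regions touched 5 of 6 marker genes, Nse2-12Pk regions touched 5 of 6, and untagged peaks touched 5 of 6. Over all protein-coding genes the shares touched were 100% for Pli1-12Pk (5112 of 5113), 100% for Nse2-12Pk (5112 of 5113) and 54.3% for the untagged list (2774 of 5113). The protein-coding gene left out was ura4 in both tagged lists, so the genes outside both made up 0.0196% of those counted. Of all 12606 annotated genes of chromosomes I to III, RNA genes included, ura4 was the only 1 with no base in a region of either tagged list.

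The gene ura4 (SPCC330.05C) lies on the minus strand of chromosome III at positions 115589 to 116625 and codes for 264 residues in 1 exon. The Pli1-12Pk gap around it ran from 115274 to 117235, a length of 1962 bp. The Nse2-12Pk gap ran from 115307 to 117167, a length of 1861 bp, and lay wholly inside the Pli1-12Pk gap. The edges of the gaps differed by 33 bp on the left and 68 bp on the right. The gaps left 315 bp (Pli1-12Pk) and 282 bp (Nse2-12Pk) free on the left of the gene span, and 610 bp (Pli1-12Pk) and 542 bp (Nse2-12Pk) on its right, where the minus-strand gene begins. Both neighbouring protein-coding genes, tam14 on the left (114921 to 115256) and new25 on the right (117578 to 117933), were wholly covered in both tagged lists. The long non-coding RNA gene SPNCRNA.6707 reached into the gaps with 50 bp (Pli1-12Pk) and 17 bp (Nse2-12Pk) of its 932 bp.

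**Figure D1:**
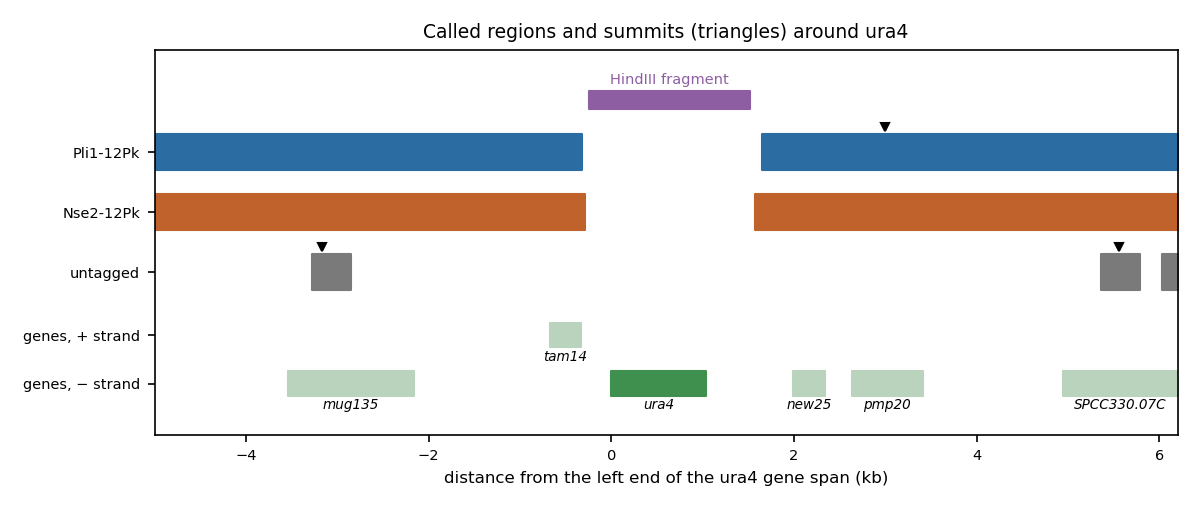
Called regions around ura4, from the top for Pli1-12Pk, Nse2-12Pk and the untagged strain, against the distance in kb from the left end of the ura4 gene span. Bars are regions, triangles are summits, green bars are protein-coding genes by strand, and the purple bar is the HindIII fragment of the reference sequence that spans ura4. Gaps of 1962 bp (Pli1-12Pk) and 1861 bp (Nse2-12Pk) enclose the gene and the fragment, and the nearest untagged peak lies 2849 bp from the gene.

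The edges of both gaps were set against the HindIII sites of the reference, because ura4-D18 is defined by that enzyme. HindIII reads aagctt on both strands, and 3 such sites lie in the Pli1-12Pk gap. They are printed here on the plus strand of ASM294v3 with the site in capitals, since they mark the ends of the fragment that the gaps enclose. The first is chrIII:115333-115362, the second chrIII:117091-117120 and the third chrIII:117136-117165.
left HindIII site: ttttgaataataAAGCTTgtgatattgacg
right HindIII site: ggatttgtagctAAGCTTcaggagttttat
further HindIII site: aatcaaaatttaAAGCTTctgtcaaagttt
Cut at the left and right sites, the fragment spans 115346 to 117103 (1758 bp), has no site inside ura4 and lay wholly in both gaps, with 0 bp of it in a called region. It made up 89.6% of the Pli1-12Pk gap and 94.5% of the Nse2-12Pk gap. On the left the gaps began 72 bp (Pli1-12Pk) and 39 bp (Nse2-12Pk) before the fragment. On the right they ended 132 bp (Pli1-12Pk) and 64 bp (Nse2-12Pk) after it. The further site lies 45 bp beyond the right one and would give a fragment of 1803 bp. It too lay inside both gaps, which ended 82 bp (Pli1-12Pk) and 14 bp (Nse2-12Pk) after its last base.

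The bases at the gap edges follow on the plus strand, with the bases of the gap in capitals, to mark where the called regions stopped. That the edges fell outside the fragment follows from the positions above, not from these bases. The windows are chrIII:115259-115288 and chrIII:117221-117250 for Pli1-12Pk, and chrIII:115292-115321 and chrIII:117153-117182 for Nse2-12Pk.
Pli1-12Pk left edge: acatgtgattggagcAATTTTAAAACCTAT
Pli1-12Pk right edge: CTGAACAAAAGAAGCacatggataaccaca
Nse2-12Pk left edge: caccgatattgtgtaTTATACTCCGAGAAA
Nse2-12Pk right edge: TCTGTCAAAGTTTAAcaatatttcttttgg
HindIII sites are common, with 6931 in the nuclear genome or 1 per 1814 bp on average. Of successive windows of 1962 bp, 65.4% held at least 1 site and 29.3% at least 2. Of windows of 1861 bp, 63.0% held at least 1 and 27.7% at least 2. Among the gaps themselves, 4 of 296 in the Pli1-12Pk list and 1 of 59 in the Nse2-12Pk list held a whole HindIII fragment, and the gap at ura4 was the only such gap found in both lists. The other 3 Pli1-12Pk gaps of this kind were 324 bp long at vrp1 and SPBC13E7.07 on chromosome II, and 3964 bp and 4222 bp long near the ends of chromosome III. Most gaps were far shorter than the mean spacing of the sites, with medians of 219.5 bp (Pli1-12Pk) and 265 bp (Nse2-12Pk). Only 5 Pli1-12Pk gaps and 4 Nse2-12Pk gaps reached 1000 bp, so gap length limits these counts. An edge lay within 200 bp of a HindIII site for 14.0% of all Pli1-12Pk gap edges (83 of 592) and for 6.78% of all Nse2-12Pk edges (8 of 118). Whether the strains carried ura4-D18 is not stated in the labels, and its part in the gaps was not tested. With all 3 strains lacking any called region at ura4, a tagged strain and the untagged strain cannot be told apart at this gene.

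Set among all gaps, those at ura4 were long and lay in unique sequence. The Pli1-12Pk gap ranked 3 of 296 by length and was 8.94 times the median gap of 219.5 bp. The Nse2-12Pk gap ranked 2 of 59 and was 7.02 times the median of 265 bp. The gaps longer than those at ura4, 2 for Pli1-12Pk and 1 for Nse2-12Pk, all lay in the outer 30 kb of chromosome III, where the ribosomal RNA genes are. To map repeated sequence, every 50-base word of the genome was checked for a further copy on either strand. The Pli1-12Pk gap at ura4 held 0 repeated words of 1913 and the Nse2-12Pk gap 0 of 1812, whereas the longer gaps had 95.9% to 96.6% of their words repeated. Of gaps with no repeated word, 253 for Pli1-12Pk and 32 for Nse2-12Pk, the one at ura4 was the longest in each list. The next longest of these were 944 bp at SPNCRNA.900 on chromosome I (Pli1-12Pk) and 1080 bp at SPNCRNA.1424, SPNCRNA.1425, SPNCRNA.5102 and SPNCRNA.5103 on chromosome II (Nse2-12Pk).

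**Figure D2:**
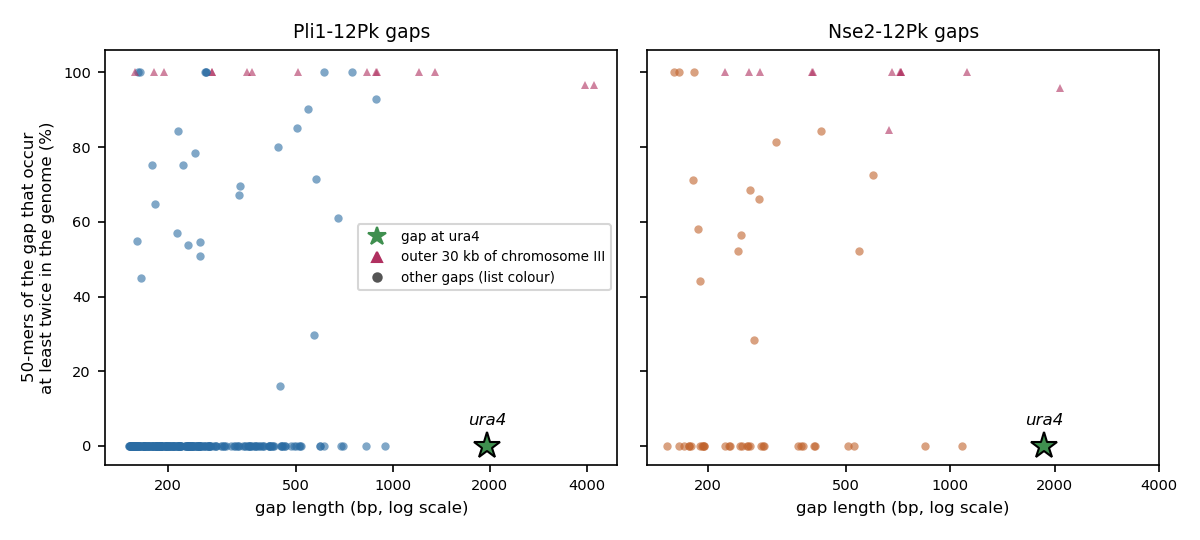
Length of each gap in bp (log scale) against the percentage of its 50-base words with a further copy in the genome, for Pli1-12Pk (left) and Nse2-12Pk (right). The star is the gap at ura4, triangles are gaps in the outer 30 kb of chromosome III and circles are all other gaps. The star sits at 0% and at 1962 bp (Pli1-12Pk) or 1861 bp (Nse2-12Pk), to the right of every other gap at 0%.

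The gaps nearest in length to the Pli1-12Pk gap at ura4 were those of 1349 bp at the 18S gene SPRRNA.43, 1210 bp at the 18S gene SPRRNA.44 and 944 bp at SPNCRNA.900. None of these 3 held a whole gene. In base composition the gaps at ura4 were closer to the genome than the median gap was. Their GC content was 34.6% (Pli1-12Pk) and 34.8% (Nse2-12Pk), against medians of 28.2% over all Pli1-12Pk gaps and 30.6% over all Nse2-12Pk gaps and 36.1% for the genome. Of Nse2-12Pk gaps, 49 of 59 (83.1%) overlapped a Pli1-12Pk gap, and of Pli1-12Pk gaps, 47 of 296 (15.9%) overlapped an Nse2-12Pk gap.

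The regions beside the gaps at ura4 had no common place in the order of scores. The Pli1-12Pk region on the left (72664 to 115273) had a score of 2679 and ranked 141 of 299. The one on the right (117236 to 123026) had a score of 1658 and ranked 228 of 299. Its summit, at 118587 in pmp20, a gene annotated as coding for a thioredoxin-related chaperone, was the Pli1-12Pk summit nearest to ura4, 1962 bp from the gene span, and lay outside untagged peaks. The Nse2-12Pk region on the left (47081 to 115306) had a score of 5862 and ranked 51 of 62, with its summit in the ribosomal protein gene rpl35, 26550 bp from ura4. The Nse2-12Pk region on the right (117168 to 347859) had a score of 19695 and ranked 18 of 62, with its summit in tef101, a translation elongation factor gene, 151582 bp away.

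The untagged strain also had no peak near ura4, but over a longer stretch. The untagged peaks on either side ended 2849 bp to the left of the gene (112316 to 112739, score 56, in mug135) and began 4324 bp to its right (120950 to 121379, score 87, in SPCC330.07C). The stretch between them was 8210 bp long and ranked 196 of 3532 stretches between untagged peaks, of which 5.55% were at least as long. It held 4 whole protein-coding genes, tam14, ura4, new25 and pmp20. Of these 4 genes, tam14, new25 and pmp20 were covered in both tagged lists. In the untagged list, 386 protein-coding genes (7.55%) lay farther from a peak than ura4 did. The median stretch between untagged peaks was 1984.5 bp, longer than either tagged gap at ura4. Since untagged peaks touched 54.3% of all protein-coding genes, a gene without one was common, unlike a gene outside the tagged lists.

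At the other 5 marker genes the tagged lists gave full cover and the untagged list gave peaks inside the gene. Each of leu1, ade6, his3, arg3 and lys1 was 100% covered by 1 Pli1-12Pk region and 100% covered by 1 Nse2-12Pk region, beside 98.5% (Pli1-12Pk) and 99.7% (Nse2-12Pk) of all protein-coding genes that were wholly covered. The untagged strain had 6 peaks in these 5 genes, so 5 of 6 marker genes held an untagged summit, beside 53.9% of all protein-coding genes. All 6 lay wholly inside the gene span, and all 6 summits fell in coding sequence. Over all untagged peaks, 95.4% lay wholly inside a protein-coding gene and 96.0% had their summit in coding sequence, so the marker genes were like the rest of the list in this.

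The gene ade6 carries the highest untagged score among the marker genes. It codes for phosphoribosylaminoimidazole carboxylase, an enzyme of purine synthesis, and lies on the plus strand of chromosome III at 1316281 to 1318035. It lay in a Pli1-12Pk region of 36353 bp (score 2711, rank 136 of 299) and in the highest-scoring Nse2-12Pk region, 574011 bp long (score 41291, rank 1 of 62), whose summit was at adh1. The untagged peak (1317541 to 1317949) had a score of 590, rank 129 of 3535, and its summit lay 83.4% of the way along the gene from the 5′ end. This score was above the highest score on 95.6% of the 2774 protein-coding genes with an untagged peak. The peak covered 23.3% of the gene.

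The gene lys1 is the longest marker gene, with 4374 bp on the minus strand of chromosome I (3739076 to 3743449). It codes for aminoadipate-semialdehyde dehydrogenase, an enzyme of lysine synthesis. It lay in a Pli1-12Pk region of 176164 bp (score 3122, rank 110 of 299) and an Nse2-12Pk region of 179459 bp (score 8899, rank 41 of 62). It held 2 untagged peaks, 3739580 to 3740917 with a score of 400 (rank 319 of 3535) and 3741200 to 3742684 with a score of 158 (rank 1418), whose summits lay 84.1% and 23.8% of the way along the gene. Together they covered 64.5% of it. The whole gene lies inside prm1, a gene on the other strand, so the peaks cannot be given to lys1 alone.

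The gene leu1 codes for 3-isopropylmalate dehydrogenase, an enzyme of leucine synthesis, and lies on the minus strand of chromosome II (1974390 to 1975674). It lay in a Pli1-12Pk region of 56629 bp (score 3469, rank 96 of 299) and an Nse2-12Pk region of 195201 bp (score 37798, rank 4 of 62). The summit of that Nse2-12Pk region was in the ribosomal protein gene rpp202. The untagged peak (1974600 to 1975536) had a score of 225 (rank 865 of 3535), with its summit 21.6% of the way along the gene. It covered 72.9% of the gene, the largest share among the 6 marker genes.

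The genes arg3 and his3 had low untagged scores. The gene arg3, on the plus strand of chromosome I (2273921 to 2275516), codes for ornithine carbamoyltransferase of arginine synthesis. It lay in a Pli1-12Pk region of 13908 bp (score 1494, rank 244 of 299) and an Nse2-12Pk region of 1345222 bp (score 12395, rank 28 of 62). Its untagged peak (2274671 to 2275019) had a score of 61 (rank 2994 of 3535) and covered 21.9% of the gene, with the summit 62.0% of the way along. The gene his3, on the minus strand of chromosome II (1488036 to 1489690), codes for an aminotransferase of histidine synthesis. It lay in a Pli1-12Pk region of 272622 bp (score 16516, rank 11 of 299) and an Nse2-12Pk region of 159171 bp (score 11949, rank 30 of 62). Its untagged peak (1488883 to 1489246) had a score of 30 (rank 3496 of 3535) and covered 22.0% of the gene, with the summit 44.5% of the way along. Of the touched protein-coding genes, 0.505% had a lower highest score than his3 and 11.0% a lower one than arg3. Neither arg3 nor his3 held any gap of the Pli1-12Pk or the Nse2-12Pk list.

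**Figure D3:**
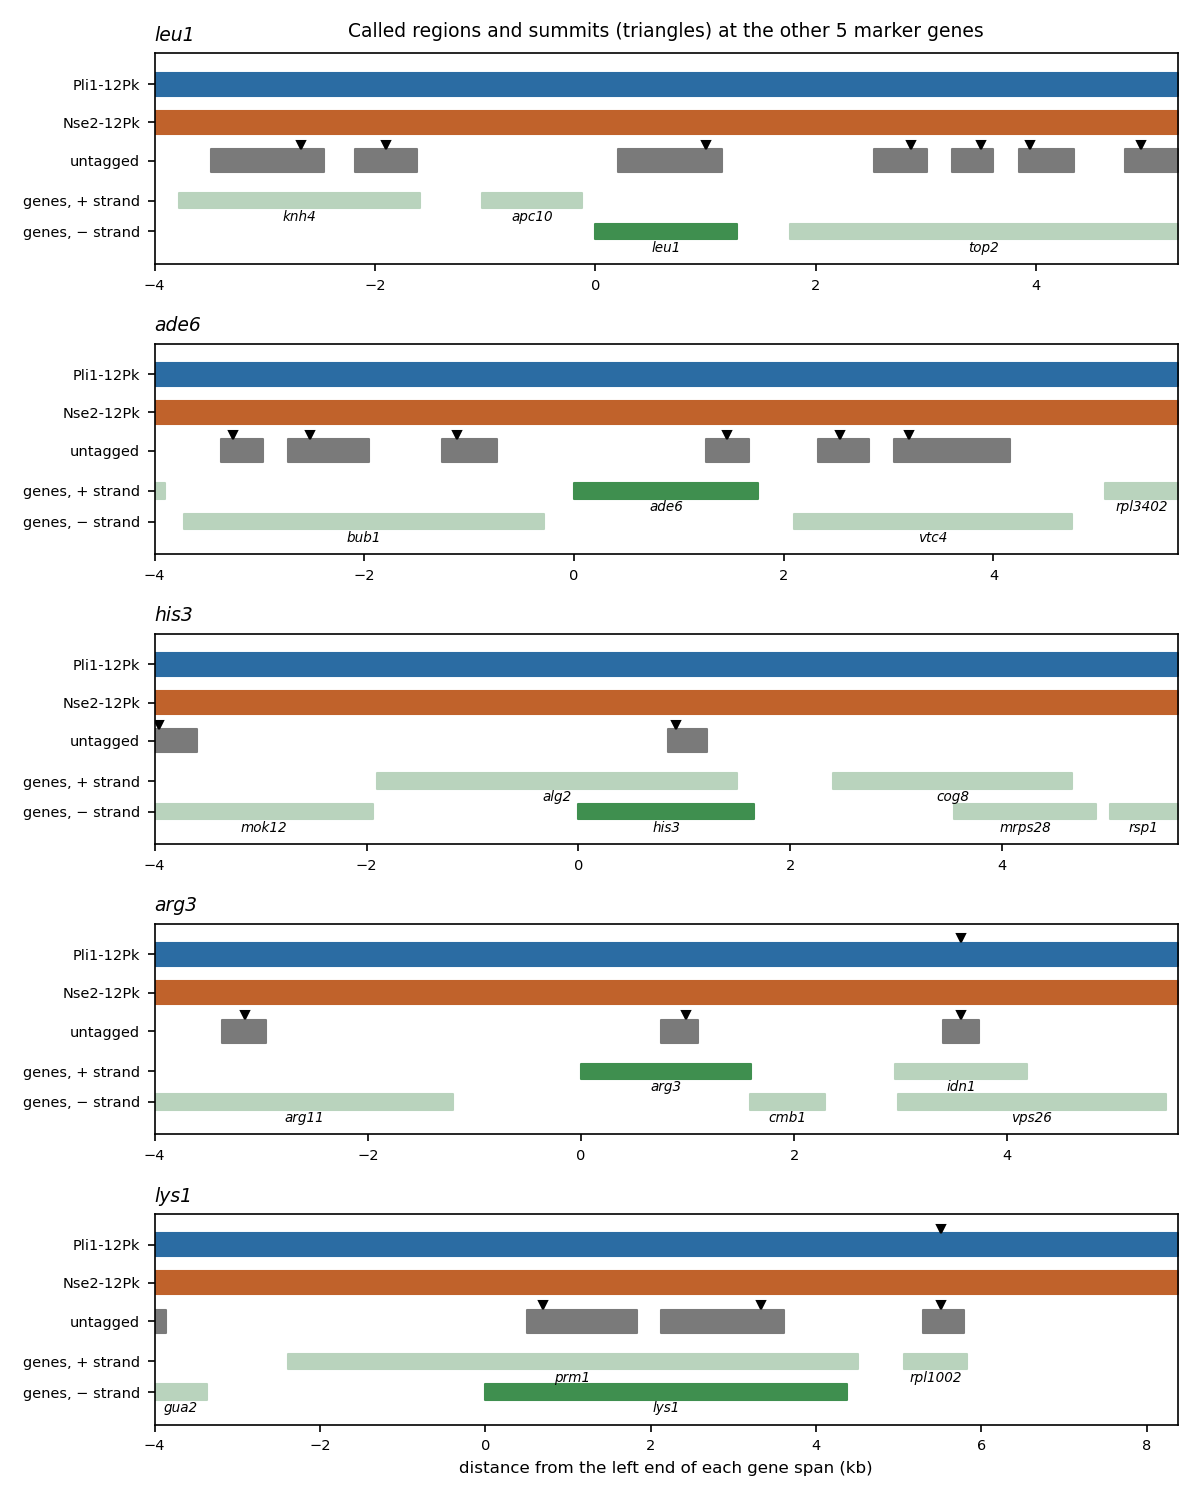
Called regions at leu1, ade6, his3, arg3 and lys1, in each panel from the top for Pli1-12Pk, Nse2-12Pk and the untagged strain, against the distance in kb from the left end of the gene span. Bars are regions, triangles are summits, dark green bars are the marker genes and light green bars other protein-coding genes. Tagged regions run through every panel without a gap, and 6 untagged peaks lie inside the 5 marker genes.

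The sequence around the untagged summits is given because it is where the signal without a tag was highest in each gene. Each line is 61 bases of coding sequence on the strand of the gene, 5′ to 3′, with the summit base in capitals. The windows are chrII:1975367-1975427 (leu1), chrIII:1317714-1317774 (ade6), chrII:1488924-1488984 (his3), chrI:2274880-2274940 (arg3), and chrI:3739741-3739801 and chrI:3742381-3742441 (lys1, score 400 and then score 158).
leu1: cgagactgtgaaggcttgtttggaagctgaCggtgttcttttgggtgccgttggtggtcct
ade6: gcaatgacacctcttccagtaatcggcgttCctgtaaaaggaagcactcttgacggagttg
his3: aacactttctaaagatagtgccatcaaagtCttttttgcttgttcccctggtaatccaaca
arg3: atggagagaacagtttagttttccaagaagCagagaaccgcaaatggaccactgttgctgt
lys1, score 400: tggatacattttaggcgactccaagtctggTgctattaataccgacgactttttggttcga
lys1, score 158: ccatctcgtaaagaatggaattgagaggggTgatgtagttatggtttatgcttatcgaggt
Their GC content ran from 37.7% at his3 to 54.1% at leu1. Over the whole peak, GC content was 46.7% at leu1, against 36.2% in the rest of the gene, and 43.6% at arg3, against 35.4%. At ade6 it was 45.7%, against 41.8%, and at his3 37.9%, against 36.5%. In the lys1 peaks it was 40.4% (score 400), against 40.2%, and 43.1% (score 158), against 38.8%. Each peak was thus above the rest of its gene in GC content, by 0.141 to 10.5 percentage points. For each lys1 peak that rest included the other lys1 peak. The rest of a gene also held its non-coding bases, whereas the peaks were coding sequence except at arg3 (325 of 349 bp coding). The part of coding against non-coding sequence in these differences was not tested. As whole genes the markers ran from 36.8% (his3) and 37.2% (arg3) through 39.6% (ura4), 40.3% (lys1) and 42.7% (ade6) to 43.9% (leu1), beside a median of 36.8% over all protein-coding genes. None of the 6 genes held a repeated 50-base word, and in GC content ura4 lay inside the range of the other 5.

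Each of the 5 touched marker genes overlaps an annotated gene on the other strand, and ura4 overlaps none. At all 6 untagged summits in these genes a gene on the other strand was also annotated, and since ChIP reads carry no strand these peaks could not be given to 1 gene of the pair. The partners at the summits are SPNCRNA.5430 at leu1, SPNCRNA.7311 at ade6, alg2 at his3, SPNCRNA.3019 at arg3, and prm1 at lys1. The gene cmb1 also overlaps arg3, by 14 bp at its 3′ end, but held no untagged peak. Of all protein-coding genes, 4595 (89.9%) overlap a gene on the other strand. Untagged peaks touched 55.5% of these 4595 genes and 43.4% of the 518 genes with no such overlap.

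No tagged summit fell in or close to a marker gene. Within 500 bp of the gene span there were 0 of 6 genes with a Pli1-12Pk summit and 0 of 6 with an Nse2-12Pk summit, beside 5.85% and 1.04% of all protein-coding genes for the same lists. With shares of this size, 6 genes are too few to tell these counts from those of other genes. The nearest Pli1-12Pk summit lay 1143 bp from lys1, 1962 bp from ura4, 1969 bp from arg3, 4044 bp from ade6, 15688 bp from leu1 and 86938 bp from his3, and the median over all protein-coding genes was 15162 bp. For lys1 this summit was in the ribosomal protein gene rpl1002 (score 3122) and inside an untagged peak with a score of 508. For arg3 it was where idn1 and vps26 overlap (score 1494), inside an untagged peak with a score of 116. For ade6 it was in the ribosomal protein gene rpl2302 (score 2711), outside untagged peaks. For leu1 it was in SPBC1E8.02 (score 1347), outside untagged peaks, and for his3 in ppi1 (score 2420), inside an untagged peak with a score of 423. So at each marker gene the nearest Pli1-12Pk summit lay in another gene.

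The nearest Nse2-12Pk summits were farther away at 5 of the 6 genes. They lay 21889 bp from leu1, 26550 bp from ura4, 31030 bp from his3, 91053 bp from lys1, 191713 bp from ade6 and 450917 bp from arg3, beside a median of 106744 bp over all protein-coding genes. The exception was his3, where the Nse2-12Pk summit, beside utp24, was nearer than the Pli1-12Pk one. The regions of these nearest Nse2-12Pk summits had low scores for his3 (682) and leu1 (838), beside a list median of 11305. For the other genes the scores were 5862 (ura4), 8042 (ade6), 8899 (lys1) and 14850 (arg3). The Nse2-12Pk list had 62 summits and the Pli1-12Pk list 299, and the part of these numbers in the distances was not tested. Among all protein-coding genes, 12.2% were nearer to a Pli1-12Pk summit than ura4 was, and 17.6% were nearer to an Nse2-12Pk summit. In the untagged list, the nearest summit lay inside each of the 5 touched genes and 3168 bp from ura4, and 92.4% of all protein-coding genes were nearer to an untagged summit than ura4.

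**Figure D4:**
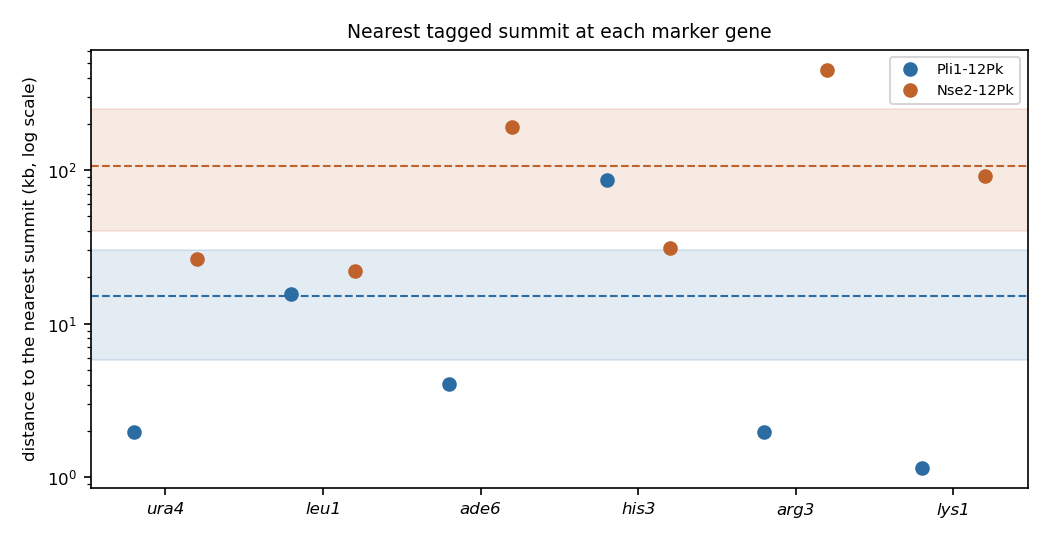
Distance in kb (log scale) from each marker gene to the nearest Pli1-12Pk summit (blue) and Nse2-12Pk summit (orange). Dashed lines are the medians over all 5113 protein-coding genes and shaded bands their central 25th to 75th percentiles. Distances run from 1143 bp (lys1) to 86938 bp (his3) for Pli1-12Pk and from 21889 bp (leu1) to 450917 bp (arg3) for Nse2-12Pk.

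The nearest gaps of the tagged lists lay well away from the other 5 marker genes and were short. For the Pli1-12Pk list they were 151 bp long and 4610 bp from arg3, 165 bp long and 8334 bp from leu1, 231 bp long and 12798 bp from lys1, 226 bp long and 14497 bp from ade6, and 202 bp long and 51080 bp from his3. For the Nse2-12Pk list they were 187 bp long and 12849 bp from lys1, 230 bp long and 21427 bp from leu1, 176 bp long and 30698 bp from his3, 165 bp long and 185667 bp from ade6, and 371 bp long and 317151 bp from arg3. The gap beside lys1 began at 3756248 (Pli1-12Pk) and 3756299 (Nse2-12Pk) on chromosome I, so it was shared by both lists, as that at ura4 was. Unlike the gap at ura4, it held repeated 50-base words, 53.8% of them in the Pli1-12Pk gap and 58.0% in the Nse2-12Pk gap. At the other 4 genes the nearest gaps of the 2 lists were different ones.

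The pathways of the marker genes were then described through their other genes, 34 of which were found under the 37 symbols listed. Every one of these 34 genes was wholly covered in both tagged lists. Untagged peaks touched 31 of 34 (91.2%), beside the 54.3% of all protein-coding genes, and covered at least 50% of the span in 17 of 34 (50%), beside 13.3%. A peak with a score of at least 100 lay on 28 of 34 (82.4%), beside 38.1%. Among the marker genes the matching counts were 5 of 6 touched, 2 of 6 covered for at least 50% of their span (leu1 and lys1) and 3 of 6 with such a score (leu1, ade6 and lys1). The median highest score on touched genes was 224 in the pathways, 225 over the 5 touched marker genes and 147 over all touched protein-coding genes. Median gene length was 1833.5 bp for the pathway genes, 1625.5 bp for the marker genes and 1773 bp for all protein-coding genes, and median GC content was 39.5%, 39.9% and 36.8% in the same order.

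In the pathway of ura4, all 4 other genes were touched by untagged peaks. They are ura1, which codes for the first enzymes of pyrimidine synthesis (highest score 451), ura3 for dihydroorotate dehydrogenase (298), ura2 for dihydroorotase (238) and ura5 for orotate phosphoribosyltransferase (236). So ura4 was the 1 gene of the 5 in this pathway with no untagged peak. Both other leucine genes were touched, leu2 (348) and leu3 (284), as were all 6 other histidine genes (56 at his7 to 317 at his2). For purine synthesis 8 of 9 were touched, with ade3 the highest (427), below ade6. For arginine it was 6 of 7, with arg5 the highest (393), and for lysine 5 of 6, with lys2 the highest (507). The 3 untouched genes were ade5 (phosphoribosylglycinamide formyltransferase), 1074 bp from a peak, arg7 (argininosuccinate lyase), 2067 bp away, and lys7 (a phosphopantetheinyl transferase that activates the product of lys1), 439 bp away. Unlike ura4, these 3 genes were wholly covered in both tagged lists.

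**Figure D5:**
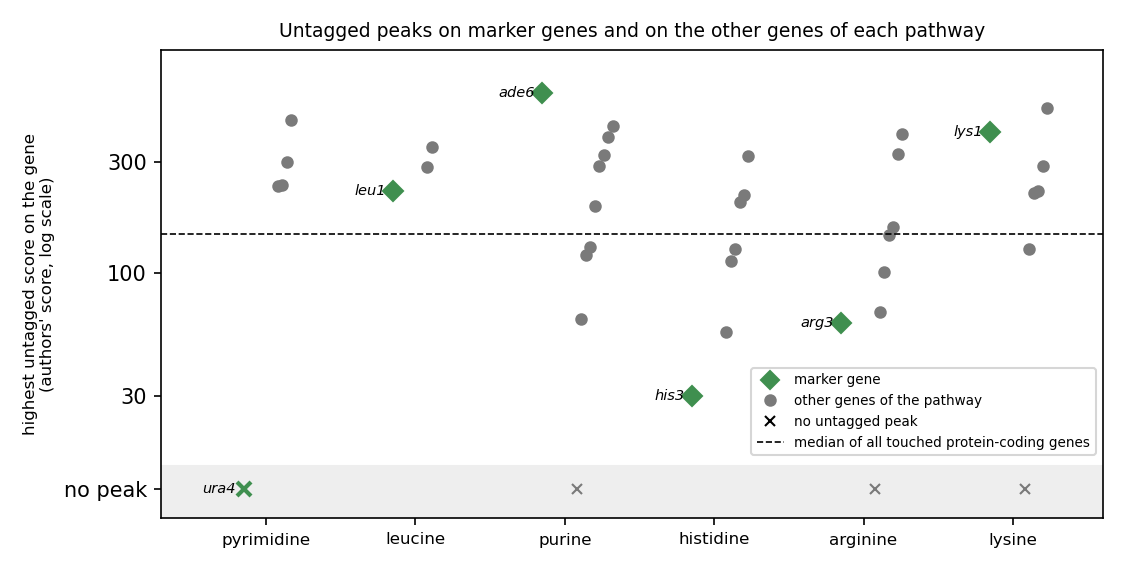
Highest score of any untagged peak on each gene (the authors' score, log scale), for the 6 marker genes (green diamonds) and the other genes of the same pathways (grey circles), with genes without a peak as crosses in the grey band. The dashed line is the median of 147 over all 2774 touched protein-coding genes. The gene ade6 is the highest of all genes shown (590), his3 the lowest of those touched (30), and ura4 has no peak.

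Pli1-12Pk summits lay in 3 of the 34 other pathway genes, and Nse2-12Pk summits lay within 500 bp of 0 of 34. The Pli1-12Pk summits were in ura1 (score 2645, rank 144 of 299), in ade2, which codes for adenylosuccinate synthetase (score 2367, rank 164), and in lys4, which codes for homocitrate synthase (score 3298, rank 105). All 3 lay in coding sequence and inside untagged peaks, whose scores were 451, 381 and 220 in the same order. How many of all 299 Pli1-12Pk summits lay inside untagged peaks was not counted, so this is not known to be particular to these genes. The share of 3 in 34 stands beside 5.85% of all protein-coding genes with a Pli1-12Pk summit within 500 bp.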

How the data were processed

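The authors deposited a whole-number score for each called region, with its start, end and summit. Per the file headers, only reads with a unique match in S. pombe entered, and calling used a p-value track. Per the submitters' processing notes the tools were cutadapt, Bowtie2, SAMtools and MACS3, and the build sacCer3, which is that of budding yeast; no versions or roles are given. Per the labels, ChIP over input was normalised to the calibrator. Fold enrichment, p and q are 0 in every region and were not used. Neither the score's scale nor the depth is stated.

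The sequence names and versions match ASM294v3, and no region ran past a chromosome end. Positions count from 1. Samples were grouped by title; each list is from 1 library, and the inputs were not analysed here. Genes were taken as annotated spans, and a gene counted as touched from 1 bp of overlap, computed in Python 3.11.15 with NumPy 2.4.6, with code tested on simulated data. Figures were drawn with Matplotlib 3.10.9. A gap is a stretch between neighbouring regions on a chromosome, without the chromosome ends. Named were the 6 marker genes, their neighbours, pathway genes without an untagged peak or with a tagged summit within 500 bp, genes in gaps of both lists and the 3 gaps nearest in length. Other genes, at summits or with the highest pathway scores, were named after their values were seen. The members and lists were chosen with earlier results of these data known. The comparisons of repeated words, GC content and opposite-strand genes were added after the gaps were seen. Sequences are from RefSeq ASM294v3. Alternatives changed the overlap, the merging of regions, the score minimum, the gene span and the gene set.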

Additional observations from a re-analysis of the deposited data

How the results depend on the processing

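The count of 5 of 6 marker genes touched by untagged peaks was also 5 with 500 bp added on each side of a gene and with summits inside the gene. It was 2 when at least 50% of the gene had to be covered and 3 with an untagged score of at least 100. For both tagged lists the count of 5 was unchanged with 50% cover or with regions within 500 bp merged. It was 4 with only regions at or above the median score. The gene that dropped out was arg3 for Pli1-12Pk (score 1494, median 2537) and lys1 for Nse2-12Pk (score 8899, median 11305). The share of all protein-coding genes was not computed for this minimum or for the added 500 bp, so these counts have no background. With a summit required within 500 bp of the gene the count was 0 for Pli1-12Pk and 0 for Nse2-12Pk. The gene ura4 was the only gene outside both tagged lists with regions within 500 bp merged, with at least 50% of a gene in the gaps, with all annotated genes and without the outer 30 kb of chromosome III, and the lengths of its gaps were unchanged by merging. Merging joins only regions within 500 bp of each other, so it could not close the gaps at ura4 or change the tagged counts. Leaving out the outer 30 kb could only remove other genes. The outcomes of merging and of leaving out these ends were therefore fixed in advance. The 31 touched pathway genes became 17 with 50% cover and 28 with a score of at least 100. These changes follow from the stricter rules themselves. No paired analysis was possible because each strain has 1 ChIP library. What limits all of these values is the single library per strain and the unknown read depth, and a list of called regions gives no signal level inside a gap, so a low and a zero signal at ura4 cannot be told apart.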

Other observations

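The Pli1-12Pk list also had a gap that overlapped both vrp1 and SPBC13E7.07 (chromosome II, 3055142 to 3055465, 324 bp). It enclosed a whole HindIII fragment, with edges 94 bp and 33 bp from a site and no repeated 50-base word. The Nse2-12Pk list had no gap there, and both genes were wholly covered in it. Among Pli1-12Pk gaps, 22 of 296 had both edges within 200 bp of a HindIII site, and among Nse2-12Pk gaps 2 of 59 did, with ura4 counted in each.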
